A study of Oryza sativa Indica Group with 18 samples.

Results

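The comparison described here asks which genes that had risen early in heat came down faster in 1 of 2 rice cultivars when seedlings passed to the hotter step. For each gene, the change between the 37 °C and 42 °C groups of IR64 was subtracted from the same change in Annapurna. The 4 groups involved hold 12 of the 18 arrays of the series, 3 arrays each. A negative difference means that the transcript fell further, or rose less, in Annapurna than in IR64.

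Both cultivars are indica rice, and RNA came from whole seedlings 7 days old, grown in hydroponic medium. The Annapurna 42 °C and IR64 42 °C groups had 37 °C for 1 h and then 42 °C for 2 h, the Annapurna 37 °C and IR64 37 °C groups had 37 °C for 1 h only, and the controls stood at 28 °C for 3 h. The light stayed on during heating, with relative humidity near 40%, and per the labels the 3 arrays of a group are biological replicates. The series title contrasts tolerance with susceptibility, without assigning either to a cultivar. The 42 °C arrays were also taken 2 h later than the 37 °C arrays, so temperature and elapsed time cannot be told apart in any shift below. Whole seedlings mix tissues, so fewer cells of a type and less RNA per cell cannot be told apart either.

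In plants, heat releases heat stress transcription factors (HSFs), which switch on genes for heat shock proteins (HSPs). Small HSPs hold unfolding proteins in solution, and HSP100 proteins such as CLPB1 pull aggregates apart. Transcripts of this kind surge within the first hour and then decline while the stress goes on. A separate group, the late embryogenesis abundant (LEA) proteins and dehydrins, accumulates in drying seeds and in tissue exposed to abscisic acid, and protein phosphatases 2C (PP2Cs) act as brakes on the signal of that hormone.

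Values are intensities of the probe set with the highest mean of each gene, given per array or as mean ± SD with n = 3 arrays per group. Differences are on the log2 scale after an intensity of 16 was added, which understates changes of dim genes, and carry their SE from a limma fit to the 12 heated arrays. A gene was called at a limma adjusted p under 0.05 and a difference of at least 1 log2, and words such as "rose" or "lower" stand for called differences alone. "Fell" compares levels in different seedlings, since the stability of RNA was not measured. On each array between 34.2 and 35.26% of probe sets exceeded an intensity of 50. Pairs of arrays correlated at 0.9986 to 0.9993 within groups and at 0.9682 to 0.9868 between groups, over probe sets, which do not count as replicates.

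Over all 17905 genes, the difference in shift was called below 0 for 588 genes (3.28%) and above 0 for 328 (1.83%). After quantile normalization this split stood at 489 below and 418 above, so the size of the excess below 0 depends on the scaling. In Annapurna 1144 genes fell between the steps (6.39%) and 493 rose (2.75%), and in IR64 700 fell (3.91%) and 456 rose (2.55%). The median difference in shift over all genes was -0.0441.

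Early heat genes were those called higher at 37 °C than in the control in both cultivars, and 669 of the 17905 genes met this rule. Control seedlings were held longer than those at 37 °C, so this rise may reflect elapsed time as well as heat. In each cultivar by itself, the rise was called for 5.59% of genes in Annapurna and 5.17% in IR64, and a fall for 4.73 and 4.04%. The rule treats the cultivars alike, but its 37 °C arrays also enter the shift, so a fall by itself is partly built into the choice. Dim genes are also rarer among the 669: both 42 °C means were under 50 for 51 of them and for 4031 of all 17905 genes. Dim genes reach 1 log2 less easily after 16 was added. Called shares of early heat genes and of other genes therefore do not compare like with like. Of the 669 early heat genes, 412 fell in Annapurna (61.6%) and 271 fell in IR64 (40.5%), with 245 in both counts. The difference in shift was lower in Annapurna for 163 of them (24.4%) and higher for 9 (1.35%), against 2.47% and 1.85% of the 17236 other genes. Its median was -0.494, and it lay below 0 for 553 of the 669, beside 9963 of all 17905 genes.

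The share of the early rise that was left at 42 °C gives the same comparison on the intensity scale, as a description with no test. This share is the 42 °C mean minus the control mean, divided by the 37 °C mean minus the control mean. Its median was 14.3% in Annapurna (quartiles -0.648 and 44.2%) and 36.6% in IR64 (quartiles 12.8 and 84.5%). Less was left in Annapurna for 537 of the 669 genes. Over all 17905 genes less was left in Annapurna for 10019, with medians of 58.8% in Annapurna and 88.7% in IR64. That wider set includes genes with no called rise. More than the whole rise was left for 54 of the 669 genes in Annapurna and 142 in IR64.

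**Figure D1:**
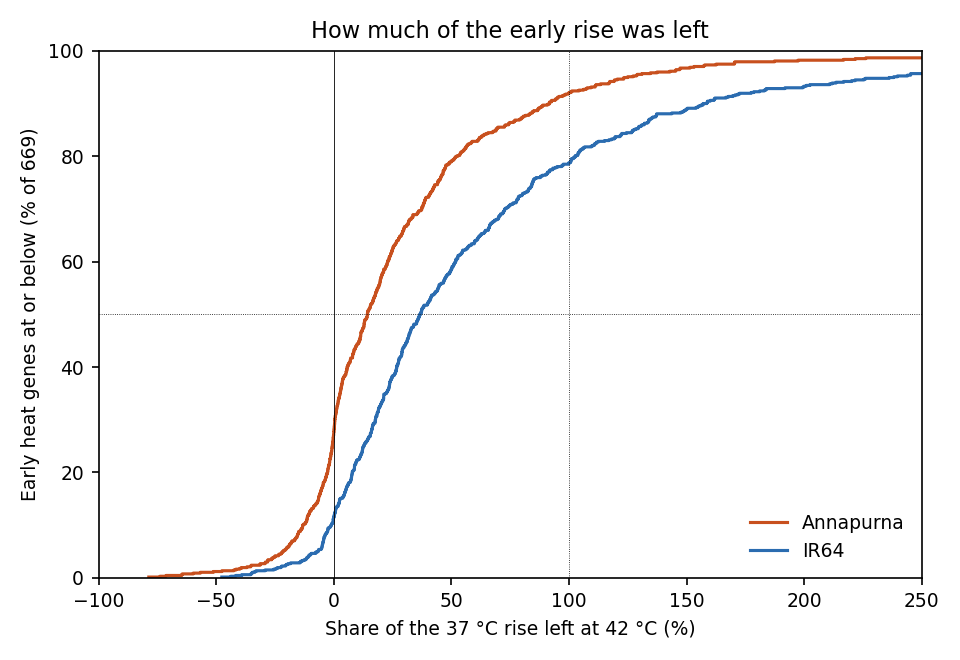
Cumulative share of the 669 early heat genes (vertical axis, %) against the share of the 37 °C rise left at 42 °C (horizontal axis, %), from group means of 3 arrays; values past the ends of the axis are counted but not drawn. The Annapurna curve lies to the left of the IR64 curve, with medians of 14.3% and 36.6%.

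A gene was said to fall faster in Annapurna when it was an early heat gene, fell in Annapurna between the steps, and had a difference in shift called below 0. This held for 139 of the 669 genes, where the same rule without the early rise holds for 396 of all 17905 genes (2.21%). The mirror rule, falling faster in IR64, held for 7 early heat genes, where 118 of all genes (0.659%) meet it. Of the 139, 68 fell in both cultivars, 58 fell in Annapurna with no call in IR64, and 13 fell in Annapurna while they rose in IR64. Their median shift was -2.80 in Annapurna and -0.884 in IR64, values fixed in part by the rule. In 26 of the 139 both 42 °C means were under 50, where the arrays separate levels poorly.

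**Figure D2:**
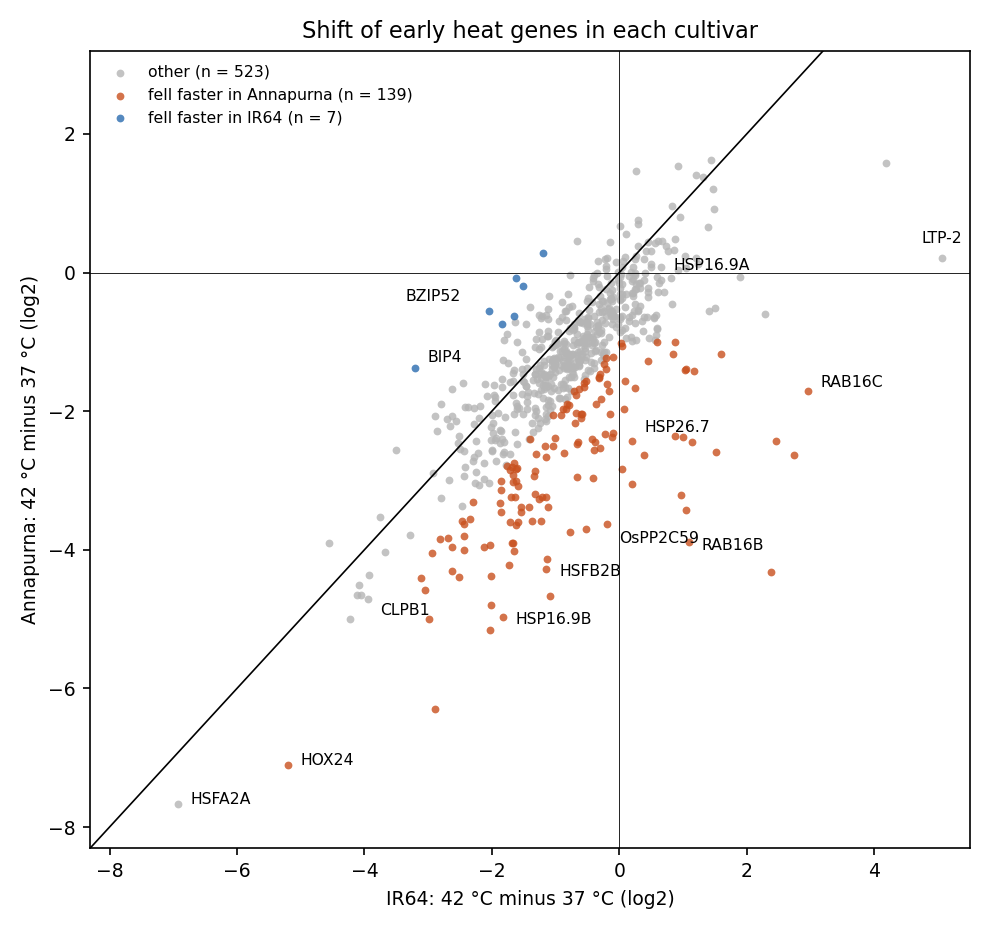
Shift of each of the 669 early heat genes from 37 °C to 42 °C in IR64 (horizontal) and Annapurna (vertical), both 42 °C minus 37 °C in log2, with a diagonal where both shifts are equal. Genes that fell faster in Annapurna (139) lie below the diagonal and those that fell faster in IR64 (7) above it, while HSFA2A and CLPB1 lie near it.

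The small HSP gene HSP26.7 fell in Annapurna and was not called in IR64. It stood at 1377, 1455 and 1525 on the Annapurna 42 °C arrays, against 7773, 7958 and 7876 on the Annapurna 37 °C arrays. The IR64 42 °C arrays read 9191, 9164 and 10600, against 8247, 8629 and 8280 on the IR64 37 °C arrays. The Annapurna steps were far apart and did not overlap, and the IR64 42 °C arrays were all slightly above the IR64 37 °C arrays. The shift was -2.43 ± 0.06 in Annapurna and 0.20 ± 0.06 in IR64, the second not called. The difference in shift was -2.63 ± 0.08 (limma adjusted p = 2.10e-08). At 37 °C the cultivars differed by -0.09 ± 0.06, Annapurna minus IR64, so the gap opened at the hotter step.

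HSP16.9B, a small HSP of class I, which works in the cytosol, fell in both cultivars and further in Annapurna. Its Annapurna 42 °C arrays read 360.2, 304.6 and 302.3, against 10910, 10490 and 10410 at 37 °C. In IR64 the 42 °C arrays read 2210, 2059 and 1823, against 7557, 7393 and 6724 at 37 °C. The difference in shift was -3.15 ± 0.12 (limma adjusted p = 7.72e-08), the furthest below 0 among the 19 small HSPs. Of the 37 °C rise, 2.63% was left in Annapurna and 27.6% in IR64. HSP21.9 also fell in both and further in Annapurna, with 34.2 to 39.91 in Annapurna and 142.6 to 146.5 in IR64 at 42 °C, after near equal means of 571.5 ± 73 and 568.2 ± 27.5 at 37 °C. Its difference in shift was -1.60 ± 0.11 (limma adjusted p = 6.39e-06), and a further probe set of the gene was also called lower.

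HSP17.8 reached the call by another route. It averaged 18.02 ± 0.0563 in Annapurna and 16.98 ± 1.84 in IR64 at 42 °C, so both had come down to about the same level. The 37 °C peak was 802.5 ± 47.9 in Annapurna and 256.2 ± 11.1 in IR64, and the difference in shift was -1.54 ± 0.08 (limma adjusted p = 1.15e-06). HSP26.2 (-1.12 ± 0.12), HSP17.7 (-1.10 ± 0.10) and HSP16.6 (-1.06 ± 0.15) were called by small margins. HSP16.6 was dim, at 18.53 ± 0.435 in Annapurna and 122.1 ± 13.4 in IR64 at 42 °C, its own fall in Annapurna was not called, and its call was lost without Annapurna 37 °C replicate 3 (-0.96) or IR64 42 °C replicate 2 (-0.99).

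In all, 7 of 19 small HSPs were lower in the difference in shift and 0 higher, beside 3.28 and 1.83% of all genes. Their median was -0.769, against -0.0441 over all genes. On the limma adjusted p alone, with no fold threshold, 14 of the 19 lay below 0 and 2 above, where 29.6% of all genes lie below and 20.9% above. Between the steps 13 fell in Annapurna and 12 in IR64, where 6.39 and 3.91% of all genes fell. Of the 19, 16 were early heat genes, and 6 of these fell faster in Annapurna. Other members were not called. HSP24.1 had a difference in shift of -0.32 ± 0.06 and HSP18.0 of -0.43 ± 0.09, neither called, though both fell in each cultivar. On 2 further probe sets of HSP18.0 no fall was called. No rise at 37 °C was called on them either (0.29 and -0.14 in Annapurna, 0.26 and -0.34 in IR64). They therefore do not speak on the fall. HSP18.0 averaged 4273 ± 431 in Annapurna and 5467 ± 267 in IR64 at 42 °C, after 28180 ± 825 and 26870 ± 570 at 37 °C. HSP16.9A, whose name is close to that of HSP16.9B, was not called in either cultivar: it read 9338 to 10350 on the Annapurna 42 °C arrays and 10370 to 11000 on the Annapurna 37 °C arrays. In IR64 it read 17260 to 17560 at 42 °C and 10760 to 11390 at 37 °C, and the difference in shift of -0.77 ± 0.06 was not called.

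HSP23.2 stood at the threshold, at -0.98 ± 0.10, and was called when Annapurna 37 °C replicate 2, Annapurna 42 °C replicate 1 or 2, or IR64 42 °C replicate 3 was left out (-1.001 to -1.042). HSP16.0 pointed the other way, at 0.94 ± 0.04, uncalled here and called after quantile normalization (1.03). The probe sets of HSP18.1 read 34.73 ± 22.8 in Annapurna and 12280 ± 1560 in IR64 at 42 °C, and 181.3 ± 27.8 and 38300 ± 1330 at 37 °C. A level gap of that size at both steps may be of expression or of how well the probes match each cultivar, which cannot be told apart here. Its difference in shift was -0.39 ± 0.35 and not called.

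**Figure D3:**
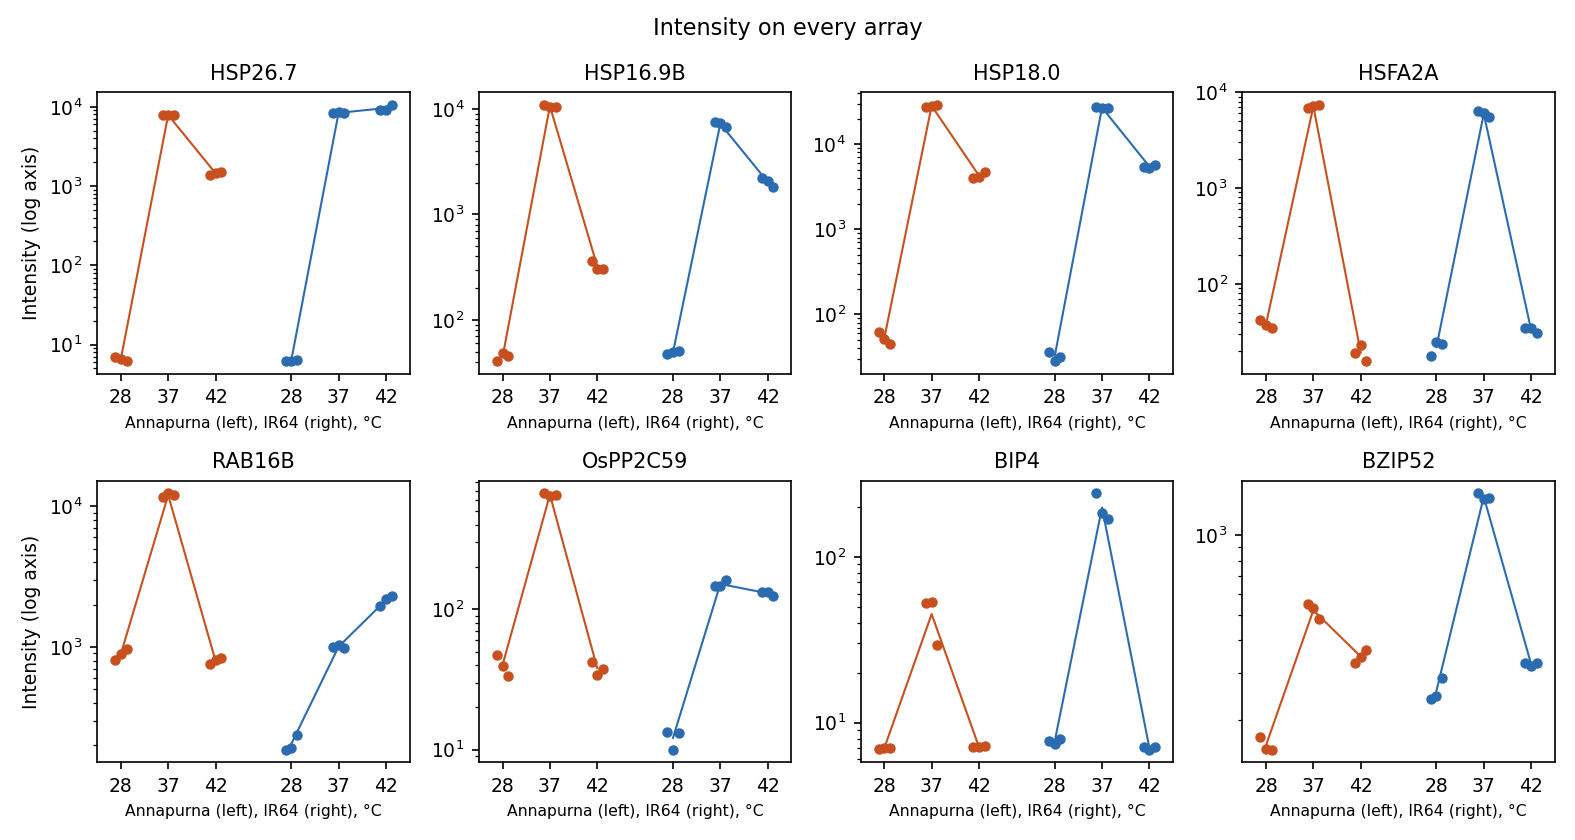
Intensity (log axis) of 8 genes on every array, 1 point per array with lines through the means of 3, in Annapurna (left, orange) and IR64 (right, blue) for the control at 28 °C, the 37 °C step and the 42 °C step. HSP26.7 stays at 9164 to 10600 in IR64 at 42 °C and stands at 1377 to 1525 in Annapurna, while HSP18.0 and HSFA2A fall in both.

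Among the heat stress transcription factors, which act upstream of these genes, 5 of 20 were lower in the difference in shift and 0 higher. Over all genes 3.28% were lower and 1.83% higher, and the list median was -0.507. On the adjusted p alone, 14 of the 20 lay below 0 and 0 above, beside the same 29.6 and 20.9% of all genes. HSFB2B, of the class B factors, which lack the activation domain of class A, read 17.42, 12.11 and 9.343 on the Annapurna 42 °C arrays, against 445.2, 527 and 503.7 at 37 °C. On the IR64 arrays it read 40.66, 36.21 and 43.97 at 42 °C, against 119.1, 94.58 and 111.6 at 37 °C. The groups did not overlap in either pair. Its difference in shift was -2.997 ± 0.165 (limma adjusted p = 1.21e-06), but the 42 °C levels of both cultivars were dim and a further probe set of the gene lay at background on every array. The cultivars stood apart mainly at the peak, with 2.03 ± 0.12 at 37 °C.

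HSFA2C, of the class A2 factors that amplify the heat response, averaged 163.3 ± 41.5 at 42 °C and 3488 ± 76.5 at 37 °C in Annapurna. In IR64 it averaged 247.3 ± 38.2 at 42 °C and 1605 ± 61.4 at 37 °C, and the difference in shift was -1.68 ± 0.21 (limma adjusted p = 2.73e-04). A further probe set was also called lower (-1.16 ± 0.08), but on it the order of the cultivars at 37 °C was the reverse, with 485.8 in Annapurna and 1071 in IR64, and the IR64 fall was not called (-0.79). The annotation gives this locus a second gene name, so the transcript measured is not settled. HSFA6B fell in Annapurna to 32.26 ± 6.67, against 232.4 ± 19.5 at 37 °C, while its IR64 arrays overlapped between the steps, and its difference was -2.26 ± 0.22. HSFB2A (-2.22 ± 0.10) was no early heat gene but fell in both cultivars, and HSFC1B (-1.17 ± 0.15) was called because it rose in IR64.

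HSFA2A, another class A2 factor, fell steeply in both cultivars. It read 18.77, 23.03 and 15.63 on the Annapurna 42 °C arrays, against 6854, 7130 and 7389 at 37 °C. In IR64 it read 34.35, 34.19 and 30.91 at 42 °C, against 6307, 6023 and 5528 at 37 °C. The shifts were -7.67 ± 0.08 and -6.92 ± 0.08, and their difference of -0.75 ± 0.11 was not called. With 1 added in place of 16 it was -1.04 and called, at 42 °C levels close to background. HSFB2C, another class B2 factor, fell in both cultivars, by 2.06 in Annapurna and by 2.00 in IR64, with a difference in shift of -0.06 ± 0.17. The homeobox gene HOX24 fell in both cultivars to near background, at 6.931 ± 0.0256 in Annapurna and 11.41 ± 0.749 in IR64 at 42 °C. Its call of -1.91 ± 0.05 came from the 37 °C peak of 3134 ± 131 in Annapurna, against 988.7 ± 8.98 in IR64.

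Most other chaperones matched by name were not called. CLPB1, the cytosolic HSP100 disaggregase, averaged 313 ± 9.86 in Annapurna and 372.2 ± 24.9 in IR64 at 42 °C, after 8580 ± 393 and 5953 ± 47.3 at 37 °C. Its difference in shift of -0.76 ± 0.07 was not called, and the 2 other CLPB genes were not called either. CLPD1, a plastid Clp protein known to respond to drying, was the single called member of 8 HSP100 and Clp genes, where 3.28% of all genes were lower (-1.86 ± 0.13, limma adjusted p = 7.28e-06, list median -0.678). It averaged 324.6 ± 43.1 in Annapurna and 336.2 ± 40.6 in IR64 at 42 °C, and 3073 ± 80 and 862.2 ± 22.7 at 37 °C. By limma, 0 of 3 HSP90 genes (median -0.239) and 0 of 5 DnaJ genes (median -0.0553) were called. On the adjusted p alone, with no fold threshold, 2 HSP90 genes lay below 0 (29.6% of all genes do) and 2 DnaJ genes above it (20.9% of all genes). Of the 8 HSP100 and Clp genes, 5 lay below 0 and 1 above at that setting. No measured gene carried an HSP70 name of the list used. The DnaJ gene DJC27 fell by 3.53 in Annapurna and by 3.76 in IR64, a difference in shift of 0.23 ± 0.06.

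**Figure D4:**
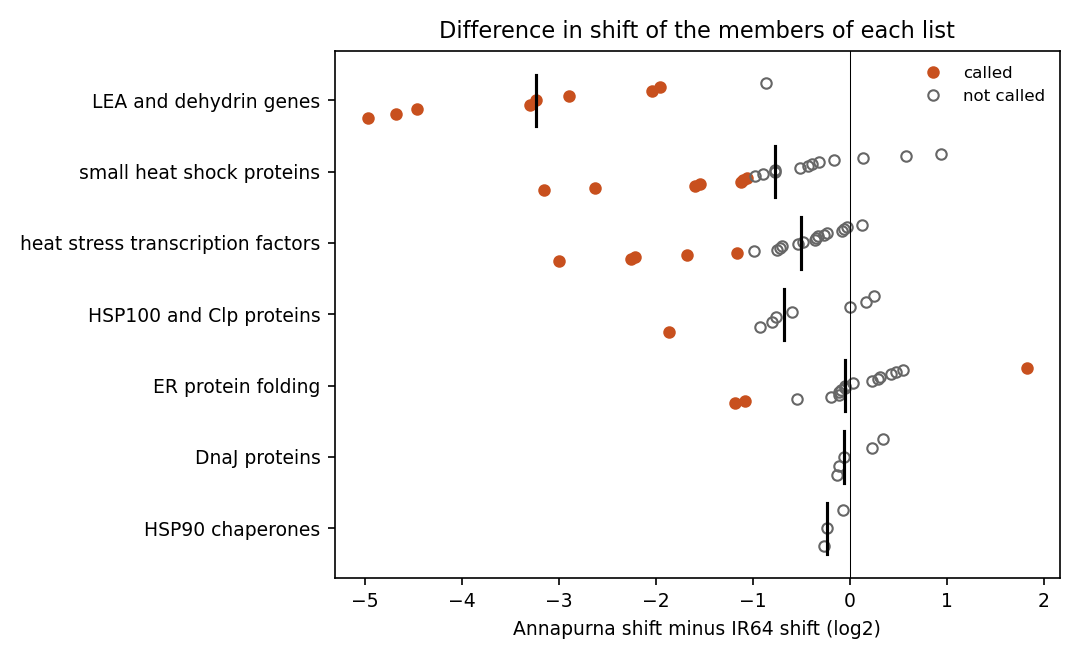
Difference in shift (Annapurna minus IR64, log2) of each named member of 7 gene lists, 1 point per gene, filled where called, with a bar at each list's median. Of 9 LEA and dehydrin genes 8 are called lower, and of 19 small heat shock proteins 7.

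LEA and dehydrin genes showed the widest gap, and here the cultivars often moved in opposite directions. Of 9 members matched by name, 8 were lower in the difference in shift and 0 higher, beside 3.28 and 1.83% of all genes. Their median was -3.23, and on the limma adjusted p alone all 9 lay below 0, where 29.6% of all genes do. Between the steps 7 fell in Annapurna (6.39% of all genes), while in IR64 6 rose (2.55%) and 1 fell (3.91%). RAB16B, a dehydrin, read 759.4, 806.4 and 828 on the Annapurna 42 °C arrays, against 11670, 12340 and 11960 at 37 °C. On the IR64 arrays it read 1962, 2190 and 2306 at 42 °C, against 990.7, 1028 and 990.2 at 37 °C. No groups overlapped, and the cultivars changed rank between the steps, with Annapurna lower at 42 °C (-1.41 ± 0.06) and higher at 37 °C (3.56 ± 0.06). The difference in shift was -4.97 ± 0.08 (limma adjusted p = 4.47e-10).

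RAB16C also fell in Annapurna and rose in IR64, with 211.9 ± 4.13 in Annapurna and 2282 ± 217 in IR64 at 42 °C, and 731.5 ± 6.05 and 277.9 ± 9.91 at 37 °C (-4.68 ± 0.08). The gene rab25 (-4.47 ± 0.10) fell to 13.76 ± 2.02 in Annapurna, near background, and stood at 129.4 ± 2.5 in IR64. OsPM19L1, a membrane protein gene of the PM19 family, fell in Annapurna to 731.3 ± 36.4 and stood at 3995 ± 75.8 in IR64 (-3.23 ± 0.06). RAB21 (-2.89 ± 0.21) and RAB16D (-1.96 ± 0.06) were called because they rose in IR64, with shifts of 2.29 ± 0.15 and 1.89 ± 0.04, while the fall in Annapurna was not called on the probe sets used. The probe sets of RAB21 disagreed on this: a further one averaged 1806 in Annapurna and 25050 in IR64 at 42 °C, after 4104 in Annapurna and 2430 in IR64 at 37 °C. On it the Annapurna fall was called (-1.18), and the difference in shift was -4.54 ± 0.08. LEA19 (-2.04 ± 0.26) fell in Annapurna and was uncalled in IR64 (0.07 ± 0.18). Dhn1 was the exception: it fell in both cultivars, by 2.98 in Annapurna and by 2.12 in IR64, and its difference of -0.86 ± 0.07 was not called. RAB16B, RAB16C and RAB21 belong to 1 gene family and carry consecutive gene numbers, and whether their probe sets share signal was not tested.

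Some grain markers also differed in shift and are given beside the LEA result. AMY1.1, an alpha-amylase of germinating grain, read 8767, 9204 and 10080 on the IR64 42 °C arrays and between 5.412 and 5.652 on the other 9 heated arrays. EP3A, a cysteine proteinase of germinating grain, read 41.48 to 52.29 on the IR64 42 °C arrays and at most 6.281 on the others. Its call (-1.49) was lost with a pseudocount of 64 (-0.65) and in the fit on all 18 arrays (limma adjusted p = 0.0539). Summed over 20 seed and endosperm genes, intensity was 21140 to 23970 on Annapurna 42 °C arrays and 21330 to 23270 at 37 °C, and 30950 to 34290 on IR64 42 °C arrays and 17780 to 18640 at 37 °C. The IR64 42 °C sum includes the AMY1.1 readings of 8767 to 10080, so it does not speak for the list as a whole. Of the 20, 5 and 6 averaged at least 50 in Annapurna (42 °C and 37 °C), and 7 and 5 in IR64. In the difference in shift 3 of the 20 were lower and 0 higher, beside 3.28 and 1.83% of all genes (list median 0.000788). Called or not, 10 of the 20 lay below 0. Of the 20, 6 lay above 0 and 7 below on the limma adjusted p alone, where 20.9 and 29.6% of all genes do. Between the steps 1 fell in Annapurna (6.39% of all genes), while in IR64 4 rose (2.55%) and 1 fell (3.91%). The part of grain tissue in the LEA result was not tested.

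Several genes tied to abscisic acid or to seeds stood beside the LEA group. OsPP2C59, a protein phosphatase 2C gene, read 42.44, 34.17 and 37.78 on Annapurna 42 °C arrays, against 669.8, 642.6 and 650.7 at 37 °C, and 132.2, 133.1 and 124.8 on IR64 42 °C arrays, against 146.7, 146 and 161.3 at 37 °C. In IR64 84.7% of its rise was left, and in Annapurna -0.333%, a return to the control level (-3.44 ± 0.09, limma adjusted p = 5.66e-09). OsPP2C30 (-2.22 ± 0.08) and PP2C68 (-1.55 ± 0.18), chosen after their values were seen, fell in both cultivars and further in Annapurna. PXG, a peroxygenase gene, averaged 522.4 ± 18.5 in Annapurna and 1788 ± 95.4 in IR64 at 42 °C, after 2904 ± 70.2 and 803.7 ± 36.2 at 37 °C (-3.58 ± 0.07). MFT1, a relative of the flowering signal FT that is active in seeds (-2.60 ± 0.12), and MS, named for malate synthase (-2.03 ± 0.07), were also taken up after their values were seen. Both fell in Annapurna, and MFT1 rose in IR64.

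ELA3 (-3.57 ± 0.13) fell in both cultivars, to 102.6 ± 0.88 in Annapurna and 412.2 ± 51.3 in IR64 at 42 °C. Several of the wide gaps among early heat genes belonged to loci without a name. LOC4344438 read 15.22, 30.23 and 17.32 on Annapurna 42 °C arrays, against 645.6, 724.7 and 770.1 at 37 °C, and 1059, 975.2 and 989.9 on IR64 42 °C arrays, against 207.2, 173.5 and 165.1 at 37 °C. Its difference in shift was -6.70 ± 0.20 (limma adjusted p = 1.61e-08), and a dimmer probe set of the same gene gave -1.20 ± 0.10. LOC4345700 (-5.37 ± 0.14) and LOC4325912 (-4.89 ± 0.14) fell in Annapurna and rose in IR64 as well. Of the 139 genes, 24 had a further probe set, and for 12 of these it was called lower too. Some further probe sets lay at background on every array, as for HSFB2B and OsPM19L1, so a missing call is not disagreement. The same share was not counted for other genes.

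Where the cultivars parted differed from gene to gene. Over all genes 449 were higher in Annapurna at 42 °C (2.51%) and 554 lower (3.09%), and at 37 °C 588 were higher (3.28%) and 384 lower (2.14%). Among the 139 that fell faster in Annapurna, 35 were lower in Annapurna at 42 °C with no call at 37 °C, as HSP26.7 and HSP16.9B were. Another 44 were higher in Annapurna at 37 °C with no call at 42 °C, as HSP17.8, CLPD1 and HOX24 were. A further 19 were called at both steps, RAB16B, RAB16C and OsPP2C59 among them, and 41 at neither. At 37 °C 129 of the 139 lay above 0, Annapurna minus IR64, and at 42 °C 132 lay below 0, directions that the rule favours.

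**Figure D5:**
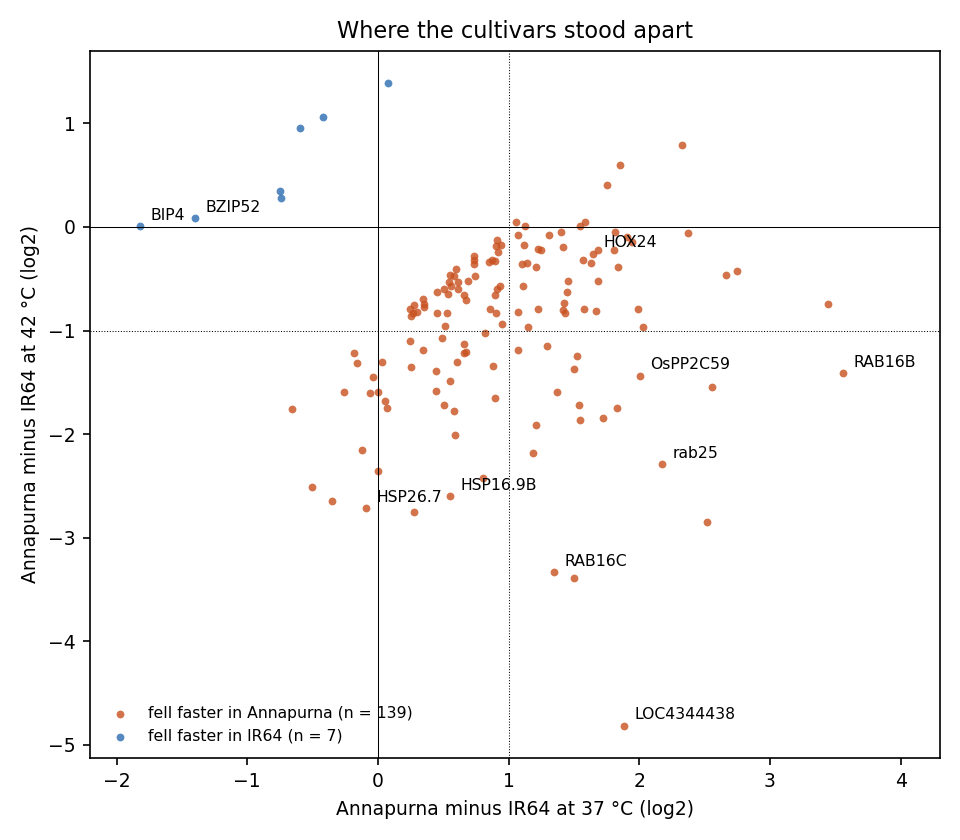
Annapurna minus IR64 (log2) at 37 °C (horizontal) and at 42 °C (vertical) for the 139 early heat genes that fell faster in Annapurna and the 7 that fell faster in IR64, with dotted lines at 1 (37 °C) and -1 (42 °C). HSP26.7 lies near 0 at 37 °C and at -2.72 at 42 °C, while HOX24 lies at 1.65 at 37 °C and at -0.26 at 42 °C.

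The 7 early heat genes that fell faster in IR64 were few, and 2 had a name. BZIP52, a bZIP transcription factor gene, read 328.2, 345.2 and 368.8 on Annapurna 42 °C arrays, against 550.8, 528.1 and 481.6 at 37 °C. On the IR64 arrays it read 328.5, 321.1 and 327.6 at 42 °C, against 1439, 1366 and 1384 at 37 °C. Both cultivars met at 42 °C (0.09 ± 0.05) after a higher peak in IR64, and the difference in shift was 1.49 ± 0.07 (limma adjusted p = 6.24e-07). BIP4, an HSP70 of the endoplasmic reticulum (ER), was at background at 42 °C in both, with 7.119 ± 0.0457 in Annapurna and 7.043 ± 0.148 in IR64. Its call of 1.83 ± 0.24 (limma adjusted p = 4.01e-04) came from 37 °C arrays at 52.96, 53.13 and 29.3 in Annapurna and 241.6, 182.7 and 170.2 in IR64.

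The other 5 carried locus numbers only, LOC4338912, LOC4351197, LOC4339262, LOC4334675 and LOC4327929, the last 2 named after their values were seen to complete the group. LOC4339262 averaged 1460 ± 32.3 in Annapurna and 547.5 ± 36.2 in IR64 at 42 °C, after 1680 ± 79.2 and 1588 ± 84.5 at 37 °C (1.31 ± 0.08). LOC4338912 (1.55 ± 0.06) and LOC4351197 (1.48 ± 0.09) also stayed near their Annapurna peak. Over the 7, the median share of the rise left was 56.7% in Annapurna and 5.98% in IR64. Among 17 ER folding genes, 7 lay above 0 and 4 below on the limma adjusted p alone, where 20.9 and 29.6% of all genes do. With the fold threshold 1 of the 17 was higher, BIP4, and 2 were lower, beside 1.83 and 3.28% of all genes (list median -0.0455). Those lower were BZIP60, a transcription factor of ER stress (-1.08 ± 0.11, lost after quantile normalization at -0.97), and OsPDIL1-3, which was near background and was called because it rose in IR64.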

How the data were processed

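RNA from each sample (500 ng) was labelled with biotin from the 3' end and hybridized to Affymetrix rice arrays, per the labels' protocols. The authors deposited 1 table of linear intensity values for 57381 probe sets; the submitters' processing notes name GCOS, and the summarization and scaling method was not stated there. Control probe sets (123) were dropped, 57258 were tested, and the deposited scaling was kept. Array medians lay within 0.0372 log2. At most 35.26% of probe sets exceeded an intensity of 50 on any array, so the medians say little about the scaling of brighter genes. Group means were fitted to log2(intensity + 16) with limma 3.58.1 in R 4.3.3 (empirical Bayes with trend, 8 residual degrees of freedom) on the 12 heated arrays, and on all 18 arrays for the early rise. Tests were two-sided, with Benjamini-Hochberg adjustment over all probe sets, and were checked on simulated data.

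Array annotation gave 1 gene to 22436 probe sets, several to 95 and none to 34727. The 17905 genes were all found in the RefSeq table (assembly ASM3414082v1), and 2445 carried a name. The brightest probe set on the heated arrays stood for each gene. Named were up to 10 early heat genes falling faster in each cultivar, the 6 largest other genes each way, the 2 largest called members and the brightest uncalled member of each list, 15 heat genes whatever their result, and 3 unnamed early heat genes each way, as far as the text needs them. HSP26.2, HSP16.6, HSP17.8, HSP21.9, HSP17.7, HSP16.0, HSFB2C, HSFC1B, BZIP60, RAB21, RAB16D, LEA19, OsPP2C30, PP2C68, MS and MFT1 were added after their values were seen. Gene lists were patterns on symbols and synonyms, with false matches removed by hand. Each list holds only the genes whose name matched, so family members without such a name were not counted. Members and lists were chosen with earlier results of these data known. Alternatives changed the pseudocount, normalization, dim filter, thresholds, fit, probe set and arrays. Figures were drawn with Python 3.11.15 and matplotlib 3.10.9.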

Additional observations from a re-analysis of the deposited data

Results flagged for a closer look

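All the results here drew attention because the cultivar difference in shift was itself tested by limma and called; values are Annapurna minus IR64 in log2. Among small heat shock proteins these were HSP16.9B (-3.15), HSP26.7 (-2.63), HSP21.9 (-1.60), HSP17.8 (-1.54), HSP26.2 (-1.12), HSP17.7 (-1.10) and HSP16.6 (-1.06). Among heat stress factors they were HSFB2B (-2.997), HSFA6B (-2.26), HSFB2A (-2.22), HSFA2C (-1.68) and HSFC1B (-1.17), and among other heat genes CLPD1 (-1.86), BZIP60 (-1.08), OsPDIL1-3 (-1.19), BIP4 (1.83), BZIP52 (1.49) and HOX24 (-1.91).

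The LEA and dehydrin genes were RAB16B (-4.97), RAB16C (-4.68), rab25 (-4.47), EM (-3.30), OsPM19L1 (-3.23), RAB21 (-2.89), LEA19 (-2.04) and RAB16D (-1.96). Beside them stood OsPP2C59 (-3.44), OsPP2C30 (-2.22), PP2C68 (-1.55), PXG (-3.58), ELA3 (-3.57), MFT1 (-2.60) and MS (-2.03), and the unnamed loci LOC4344438 (-6.70), LOC4345700 (-5.37), LOC4325912 (-4.89), LOC4338912 (1.55), LOC4351197 (1.48) and LOC4339262 (1.31). Grain genes were AMY1.1 (-8.76), LTP-2 (-4.85) and EP3A (-1.49).

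Other genes below 0 were OsSWEET15 (-4.59), ICL (-3.20), FTSH6 (-3.11), BGLU16 (-2.49) and DREB1G (-1.60). Above 0 were CYP71Z7 (2.50), OsWRKY24 (2.49), NAS1 (2.35), OrysaZxb (2.32), HAK17 (2.07), PBZ1 (2.06), OsWRKY62 (1.87), OsTPP1 (1.56), NAS2 (1.48), JAZ10 (1.48), JAZ12 (1.44) and OsTPP2 (1.18).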

How the results depend on the processing

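None of the 87 genes followed across the alternatives changed the sign of a called difference in shift; other genes were not followed for sign. The early heat genes, those falling faster in Annapurna and those falling faster in IR64 numbered 669, 139 and 7 as reported. They numbered 760, 179 and 7 with a pseudocount of 1, 531, 95 and 6 with 64, and 638, 121 and 10 after quantile normalization. Leaving out 1 array gave 657 to 679, 137 to 146 and 6 to 9, and the first probe set of each gene gave 653, 138 and 7. Asking for 2 log2 in the early rise gave 150, 49 and 1, and a rise in at least 1 cultivar gave 1258, 260 and 26. Keeping genes with a mean of at least 50 at 42 °C in at least 1 cultivar, a filter chosen after seeing the data, gave 618, 113 and 6. The fold threshold left the 669 as they were and moved the other counts: without it 429 genes fell faster in Annapurna and 66 in IR64, and at 2 log2 46 and 0.

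Over all genes, the difference in shift was called above 0 for 3749 and below 0 for 5305 without a fold threshold, and for 38 and 122 at 2 log2. Annapurna had 5428 rises and 4318 falls without it and 47 and 315 at 2 log2, and IR64 had 7108 and 5053, then 50 and 133. Annapurna minus IR64 gave 3369 and 4382 at 42 °C and 5647 and 4719 at 37 °C without it, and 142 and 150, then 149 and 109 at 2 log2. A pseudocount of 64 gave 391 genes below 0, 326 rises in Annapurna, 263 in IR64 and 292 genes higher in Annapurna at 42 °C. Of 1826 comparisons over 87 genes, 1763 kept their side of the threshold, 36 lost a call and 27 gained one. Outside the fold settings, a pseudocount of 64 also ended the calls of OsPDIL1-3 (-0.58), DREB1G (-0.92), EP3A (-0.65), HSFC1B (-0.66) and HSP16.6 (-0.56), and quantile normalization that of HSP16.6 (-0.90). EP3A was not called in the fit on all 18 arrays (adjusted p = 0.0539). The cause was not tested.

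Replicate numbers paired no arrays: deviations of 18 same-numbered pairs correlated between -0.0954 and 0.164. With replicate number as a block, 669, 139 and 7 genes were again counted, 328 genes were called above 0 and 587 below 0. The number of arrays, and signal near background for dim genes, limit the precision.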

Other observations

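Genes of other groups also differed in their shift. OsSWEET15, a sugar transporter gene, averaged 41.14 ± 4.48 in Annapurna and 93.14 ± 4.18 in IR64 at 42 °C, after 779.9 ± 15.2 and 48.06 ± 11.7 at 37 °C. FTSH6, a plastid protease gene, averaged 17.12 ± 0.723 in Annapurna and 26.19 ± 4.47 in IR64 at 42 °C, after 385.5 ± 53.1 in Annapurna and 42.68 ± 2.11 in IR64 at 37 °C, and a further probe set was called lower as well (-2.93). ICL, named for isocitrate lyase of the glyoxylate cycle, fell in Annapurna to 22.43 ± 5.45 and rose in IR64 to 411.6 ± 12.4. LTP-2, a lipid transfer protein gene of the seed list and an early heat gene, stood in Annapurna at 262.8 ± 31 at 42 °C and 223.2 ± 9.61 at 37 °C, and rose in IR64 to 2062 ± 72.5 at 42 °C, against 46.22 ± 7.98 at 37 °C.

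On the other side, 4 of 6 WRKY factors were higher in the difference in shift and 0 lower (median 1.05). Over all genes 1.83% were higher and 3.28% lower. OsWRKY24 averaged 168.1 ± 18.9 in Annapurna and 23.35 ± 2.96 in IR64 at 42 °C, after 174.4 ± 4.52 and 213.2 ± 17.6 at 37 °C, and the fall was called in IR64 only. Only 2 of the 6 were called with a pseudocount of 64. The defence gene PBZ1 rose in Annapurna to 12490 ± 774, against 2526 ± 151 at 37 °C, and was uncalled in IR64. Of 33 jasmonate genes, 2 were higher and 1 lower (median -0.0425), beside the same shares of all genes. JAZ10, a repressor of jasmonate signalling, averaged 1060 ± 68.4 at 42 °C and 1620 ± 134 at 37 °C in Annapurna, with no call, and fell in IR64 to 216.7 ± 9.11, against 969 ± 81.3 at 37 °C. On a further probe set of JAZ10 the difference in shift was 0.73 and not called. Of 9 trehalose and raffinose genes 2 were higher, OsTPP1 and OsTPP2, and 0 lower, beside 1.83 and 3.28% of all genes (median 0.0266).

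Of 9 root markers 2 were higher and 0 lower (median 0.0957), beside 1.83 and 3.28% of all genes. The 2 were NAS1 and NAS2, both for nicotianamine synthase, which makes a carrier of iron. Summed intensity of the root list was 25170 to 27540 on Annapurna 42 °C arrays and 12920 to 13360 at 37 °C, and 12650 to 13740 on IR64 42 °C arrays and 9720 to 10080 at 37 °C. By limma 0 of 14 photosynthesis genes were called (median 0.0284; on the adjusted p alone 5 lay above 0 and 3 below), and their sum was 218900 to 232400 on Annapurna 42 °C arrays and 226400 to 238300 at 37 °C, and 193500 to 200700 on IR64 42 °C arrays and 205200 to 209600 at 37 °C. Limma also called 0 of 74 cell division genes (median -0.104), 0 of 17 glutathione, ascorbate and catalase genes (median -0.117), 0 of 13 actin and tubulin genes (median -0.0883) and 0 of 7 clock genes (median -0.351). On the adjusted p alone, 12 cell division genes lay above 0 and 21 below, 1 and 7 of the glutathione list, 3 and 3 of the actin list and 1 and 4 of the clock list. Over all genes 20.9% lay above 0 and 29.6% below at that setting. Of 11 DREB and ethylene response factors 1 was lower, DREB1G (median 0.00479), where 3.28% of all genes were lower.

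The mirror group, 425 genes called lower at 37 °C than in the control in both cultivars, gave more differences above 0 than below. The difference in shift was higher for 34 of them (8.0%) and lower for 12 (2.82%), against 1.83 and 3.28% of all genes. Its median was 0.0866. Between the steps 79 rose in Annapurna (18.6%) and 65 in IR64 (15.3%), where 2.75 and 2.55% of all genes rose. The 37 °C arrays that chose this group also enter the shift, so a rise by itself is partly built in. Here too the control seedlings were held longer, so the early fall may reflect elapsed time as well as heat. Of the 425, 14 came back further in Annapurna and 1 in IR64, a rule not counted over all genes. Over all genes, shifts called in opposite directions together with a called difference were found for 19 genes that fell in Annapurna and rose in IR64 and 5 the other way, 0.134% in all.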
